A study of Mus musculus with 4 samples.

Results

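The 143 genes described here were those at least doubled in both Senp6-Mut samples of cultured mouse rib chondrocytes, the cells that make cartilage. They were chosen by the deposited expression values of the 4 samples: a gene was taken when the lower of its Senp6-Mut values was at least 2 times the higher of its WT values and both Senp6-Mut values were at least 1 RPKM (reads per kilobase of gene length and per 1000000 reads counted on genes). The 143 were taken from the 18298 genes with a read in any sample. Of the 11484 genes with both Senp6-Mut values at least 1 RPKM, they made up 1.25%. The same limits turned round, with both WT values at least 1 RPKM and at least 2 times both Senp6-Mut values, took 60 of 11283 genes, or 0.532%. Because the values of this comparison chose the genes, their levels and ratios are given as a description and were not tested.

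The cells were cultured from rib cartilage of E18.5 embryos on a C57BL/6 background and sequenced at passage P1. The 2 WT samples were Senp6f/f without Cre, so the controls also carried the floxed alleles, and the 2 Senp6-Mut samples were Dermo1-Cre;Senp6f/f. Dermo1-Cre is driven from the Twist2 locus in mesenchymal progenitors, including those of bone and cartilage, and it can also recombine in other mesenchymal cells of a rib preparation. Neither the labels nor the methods say whether a sample was 1 embryo or a pool, so the spread between the samples of a group may be partly technical.

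SENP6 is a protease that removes chains of the small protein SUMO from other proteins. SUMO on chromatin proteins is known for holding genes silent, and the co-repressor TRIM28 restrains the tumour suppressor p53 as well as retroelements. The study reports that SENP6 removes SUMO from TRIM28 and stabilises it. In its reporter assay, TRIM28 expressed together with SUMO3 raised p53 activity, and added SENP6 abolished the rise. p53 in turn switches on genes for cell cycle arrest and apoptosis. The study proposes that raised p53 signalling in chondrocytes without Senp6 also enhanced the secretion of signals by senescent cells.

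Depth ranged from 21.02 to 30.99 a sample, in units of 1000000 reads counted on genes. Senp6 itself was 10.8 and 18 RPKM in WT and 12 and 8.07 RPKM in Senp6-Mut, so its level overlapped between the groups. That level is summed over the whole gene and includes exons outside the floxed part, and it therefore cannot check the deletion. The chondrocyte markers Col2a1, Acan and Sox9 were read in all 4 samples, and the summed RPKM of 20 chondrocyte markers was 1107 and 1087 in WT and 531 and 677 in Senp6-Mut. Xist was at 22.4 RPKM in Senp6-Mut 2 and at most 0.0107 RPKM in the other samples, whereas the Y-linked Ddx3y was at 0.0229 RPKM in Senp6-Mut 2 and at least 8.39 RPKM in the others. In the quasi-likelihood test of edgeR over 14123 genes, 0 genes in either direction had a Benjamini-Hochberg adjusted p under 0.05, with 1312 higher and 887 lower at an unadjusted p under 0.05 (9.29% and 6.28%). DESeq2 called 434 genes higher (3.07%) and 263 lower (1.86%) at the same adjusted limit. With 2 samples against 2, the smallest two-sided p that exact permutation of the labels allows for a gene is 0.333.

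The ratio of the lower Senp6-Mut value to the higher WT value ran from 2.01 to 11 among the 143 genes, with a median of 2.38. It was at least 3 for 38 genes, at least 4 for 20 and at least 5 for 14, and it lay under 2.5 for 86. Most of the genes were of low abundance. The median over genes of the mean level was 0.953 RPKM in WT and 3.35 RPKM in Senp6-Mut, against 10.8 and 11.1 RPKM over the 11484 genes. Both WT values were under 1 RPKM for 64 of the 143 genes, and both Senp6-Mut values were at least 10 RPKM for 24. Each of the 143 had a read in at least 1 WT sample, and Cldn3 alone had no read in 1 of them. Reads covered a median of 91.0% of the gene length in Senp6-Mut and 73.3% in WT. All but Mir3072 had at least 31 reads in each Senp6-Mut sample. Mir3072, a microRNA gene, rested on 1 and 1 reads in WT and 4 and 3 in Senp6-Mut, which gives a depth-scaled ratio of summed reads of 2.79 with an exact 95% counting interval of 0.53 to 27.5.

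**Figure D1:**
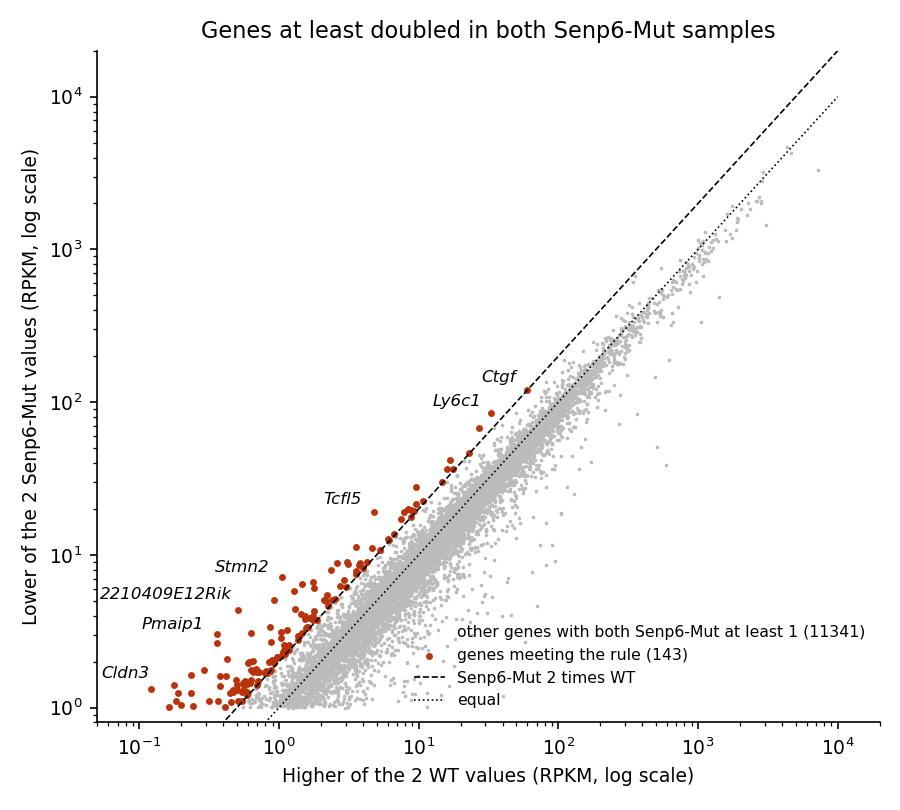
Each point is a gene with both Senp6-Mut values at least 1 RPKM. The x axis is the higher of the WT values and the y axis the lower of the Senp6-Mut values, both in RPKM on log scales. The 143 genes meeting the rule (red) lie on or above the dashed line of 2 times WT, mostly at the low end of the expression range, and the other 11341 genes (grey) spread about the line of equal levels.

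At the limit the choice turned on small differences. The genes just inside were Wdr92, Gm13212, Pkia, Lrrc4c and Gm16702, each with a ratio of 2.01, and those just outside included Tbc1d2, Otud1, Casq2 and Vgf, with ratios of 1.99 to 2.00. Wdr92 was 10.9 and 23 RPKM in WT and 46.2 and 76.1 RPKM in Senp6-Mut, and Casq2, the calsequestrin of cardiac and slow muscle, was 1.25 and 0.361 RPKM in WT and 2.5 and 2.52 RPKM in Senp6-Mut.

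The largest ratio was that of Cldn3, a claudin of epithelial tight junctions, which was 0 and 0.121 RPKM in WT and 1.33 and 1.35 RPKM in Senp6-Mut. Those values rest on 0 and 4 reads in WT and 52 and 48 reads in Senp6-Mut, and the ratio of summed reads scaled by depth was 19.9, with an exact 95% counting interval of 7.53 to 74.5. These intervals cover counting error only, as PCR copies are not independent molecules. Next came 2210409E12Rik, which was 0.252 and 0.507 RPKM in WT and 4.36 and 6.57 RPKM in Senp6-Mut, a ratio of 8.6. It lies beside Gm15698, an elongin B-like gene also among the 143, which was 1.47 and 1.18 RPKM in WT and 6.48 and 10.6 RPKM in Senp6-Mut. The deposited annotation gives both genes the same terms for transcription, and reads shared between near-identical copies cannot be told apart here.

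Pmaip1, which encodes the BH3-only apoptosis inducer NOXA, was 0.179 and 0.36 RPKM in WT and 3.05 and 3.49 RPKM in Senp6-Mut. Its WT samples had 10 and 25 reads and its Senp6-Mut samples 251 and 262, and the ratio of summed reads scaled by depth was 11.7 (counting interval 8.28 to 16.9). Arhgap36, a GTPase-activating protein family member that acts on GLI signalling and protein kinase A, was 0.0783 and 0.176 RPKM in WT and 1.4 and 2.41 RPKM in Senp6-Mut. Mcpt8, a serine protease of basophil granules, was 0.338 and 0.362 RPKM in WT and 2.63 and 9.68 RPKM in Senp6-Mut, with the Senp6-Mut samples 3.67-fold apart, the widest gap in that pair among the 143. Bst1, an ectoenzyme of the bone marrow stroma that makes cyclic ADP-ribose, was 0.163 and 0.0819 RPKM in WT and 1.01 and 2.15 RPKM in Senp6-Mut. Senp6-Mut 2 was the higher mutant sample in each of these genes, while the higher control was WT 2 for all but Bst1.

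Stmn2, a microtubule-destabilising stathmin of growing neurites, was 0.75 and 1.04 RPKM in WT and 7.22 and 10.6 RPKM in Senp6-Mut. Fgf13, an intracellular FGF homologous factor that binds sodium channels and microtubules, was 0.228 and 0.29 RPKM in WT and 1.78 and 2.19 RPKM in Senp6-Mut. Crym, a cytosolic thyroid hormone binding protein, was 0.114 and 0.183 RPKM in WT and 1.1 and 1.13 RPKM in Senp6-Mut, with the Senp6-Mut values almost equal. Coch, the cochlin of inner ear matrix, was 0.142 and 0.20 RPKM in WT and 1.05 and 2.43 RPKM in Senp6-Mut. Serpinb9b, of the serpin clade that includes granzyme inhibitors, was 0.247 and 0.634 RPKM in WT and 3.08 and 3.1 RPKM in Senp6-Mut. Tuba8, a divergent alpha-tubulin, was 0.332 and 1.28 RPKM in WT and 5.79 and 13.9 RPKM in Senp6-Mut, so its samples differed within both groups. Tcfl5, a basic helix-loop-helix factor of the male germline, was the most abundant gene with a ratio near 4: it was 4.76 and 4.22 RPKM in WT and 19 and 23.5 RPKM in Senp6-Mut, and both groups were tight. The annotation has Tcfl5 overlapping Col9a3, a cartilage collagen gene, whose own level lay in the opposite direction at 30.1 and 22.5 RPKM in WT and 5.57 and 9.94 RPKM in Senp6-Mut.

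Of the remaining genes of the 25 largest ratios, the ratio was 6.95 for Sprr1a, 6.58 for Stxbp3b, 5.48 for Ccdc68, 5.3 for Nup62cl, 4.84 for Sult4a1, 4.25 for Doc2b, 4.18 for Edn1, 3.87 for Mc2r, 3.86 for Cyp2s1, 3.8 for F11r and 3.65 for Diras2. Ccdc68 was 0.718 and 0.928 RPKM in WT and 5.25 and 5.08 RPKM in Senp6-Mut, with the Senp6-Mut values close to each other, while Sprr1a, Stxbp3b and Nup62cl had fewer than 10 reads in each WT sample.

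**Figure D2:**
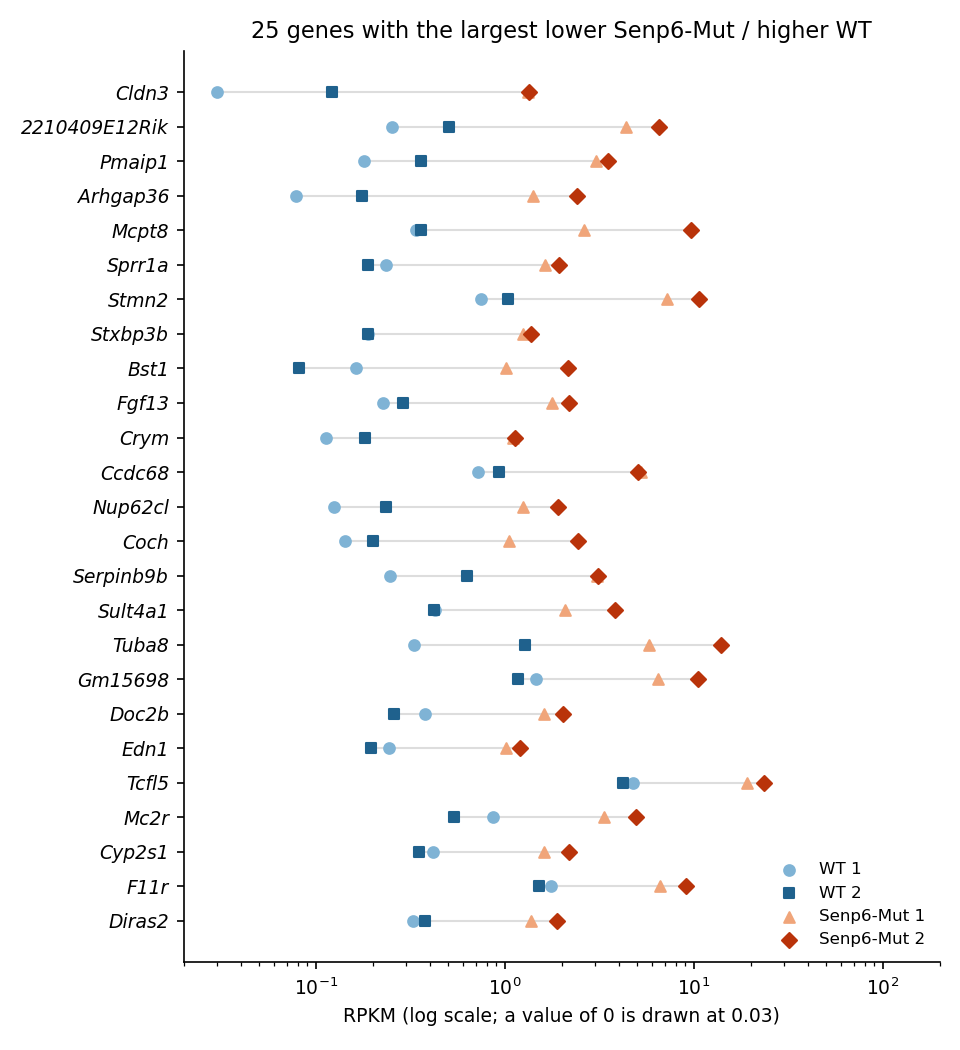
RPKM (log scale) of the 25 genes with the largest ratio of the lower Senp6-Mut to the higher WT value, 1 symbol for each of the 4 samples and no averaging. Cldn3 heads the list at a ratio of 11 and Diras2 ends it at 3.65, and the orange and red symbols lie to the right of the blue ones in each row.

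By mean Senp6-Mut level the order was different. Ctgf, a matricellular growth factor that is a standard target of YAP and TEAD and of TGF-beta, was the most abundant at 39.5 and 59.3 RPKM in WT and 120.0 and 174 RPKM in Senp6-Mut. Ly6c1, a GPI-anchored surface antigen of monocytes and endothelium, was 28.7 and 33.2 RPKM in WT and 85.5 and 148 RPKM in Senp6-Mut. Fhl1, a LIM protein of striated muscle, was 15.3 and 27.2 RPKM in WT and 67.7 and 85.2 RPKM in Senp6-Mut. Wdr92 came next, with the values given above. Ass1, the argininosuccinate synthase of the urea and citrulline cycles, was 11 and 17.7 RPKM in WT and 36.4 and 53.8 RPKM in Senp6-Mut. Des, Cox6b2 and Actc1 followed, and Cox6b2, a testis isoform of a cytochrome c oxidase subunit, was 10.8 and 8.47 RPKM in WT and 22.5 and 55.6 RPKM in Senp6-Mut. C1qtnf3, a secreted C1q/TNF-related protein first described in cartilage, was 12.1 and 14.7 RPKM in WT and 30.2 and 39.8 RPKM in Senp6-Mut. Mcam, Ptgs2, Tmtc4, Krt18, Ankrd1 and Tcfl5 completed the 15 most abundant. The other 14 had ratios under 3, and Tcfl5 had one of 3.99.

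Growth arrest and apoptosis was represented by 4 genes. Besides Pmaip1 these were Rprm, 1700007K13Rik and Cables1. Rprm encodes reprimo, a p53-inducible protein of G2 arrest, and it was 0.326 and 0.681 RPKM in WT and 1.79 and 3.78 RPKM in Senp6-Mut. 1700007K13Rik, known as Pierce1 and named for its induction by p53, was 1.14 and 0.919 RPKM in WT and 3.21 and 5.23 RPKM in Senp6-Mut. Cables1, a CDK-binding adaptor, was 2.53 and 2.29 RPKM in WT and 5.12 and 8.11 RPKM in Senp6-Mut. On a list of 46 p53 target genes, 45 had both Senp6-Mut values at least 1 RPKM and 3 met the rule, namely Pmaip1, Gdf15 and Lif, or 6.67% against 1.25% over all such genes. Both Senp6-Mut values lay above both WT values for 33 of the 45 targets tested by edgeR and below them for 3, and the median log2 fold change was 0.53, against 28.3%, 19.2% and 0.0097 over all 14123 tested genes. Pmaip1, Gdf15 and Lif are among the 33 because of the rule. The list also includes genes that the study examined in these samples, so it is not independent evidence. Trp53 itself was 102 and 127 RPKM in WT and 119 and 124 RPKM in Senp6-Mut, and Trim28 was 129 and 144 RPKM in WT and 139 and 134 RPKM in Senp6-Mut. The groups overlapped for both of these genes.

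Secreted signals and the enzymes of lipid mediators made up 13 of the 143 genes. The gp130 cytokines Il6, Lif and Il11, which share a signalling receptor chain, all met the rule. Il6 was 0.306 and 0.598 RPKM in WT and 1.96 and 3.94 RPKM in Senp6-Mut, on 7 and 17 reads in WT and 66 and 121 in Senp6-Mut. Lif was 0.356 and 0.629 RPKM in WT and 1.76 and 2.64 RPKM in Senp6-Mut, and Il11 was 0.586 and 0.628 RPKM in WT and 1.51 and 2.56 RPKM in Senp6-Mut. Senp6-Mut 2 was the highest sample in all 3 cytokines. Gdf15 is a stress-induced member of the TGF-beta family and a p53 target. It was 1.67 and 2.36 RPKM in WT and 8.01 and 11.1 RPKM in Senp6-Mut. Its log2 fold change in the edgeR fit was 2.19 ± 0.28, where the SE was back-calculated from the F statistic of the test. Inhbb, the beta-B subunit of activin and inhibin, was 6.04 and 5.51 RPKM in WT and 12.7 and 18.5 RPKM in Senp6-Mut. Edn1, the vasoconstrictor endothelin, was 0.244 and 0.196 RPKM in WT and 1.02 and 1.21 RPKM in Senp6-Mut. Bdnf, a neurotrophin, was 0.785 and 1.59 RPKM in WT and 3.37 and 3.73 RPKM in Senp6-Mut. The WT samples of Bdnf were 2.03-fold apart.

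Ptgs2 encodes COX-2, the inducible enzyme of prostaglandin synthesis, and it was 2.59 and 8.43 RPKM in WT and 20.1 and 31.1 RPKM in Senp6-Mut. The WT samples were 3.25-fold apart, a wider gap than the 2.38-fold between the higher WT and the lower Senp6-Mut value. Pla2g7, the platelet-activating factor acetylhydrolase, was 1.63 and 3.54 RPKM in WT and 11.3 and 15.1 RPKM in Senp6-Mut. Pla1a, a phosphatidylserine-specific phospholipase, was 1.15 and 1.3 RPKM in WT and 4.42 and 4.56 RPKM in Senp6-Mut, with both groups tight. Fam132b, which encodes erythroferrone, was 2.17 and 3.02 RPKM in WT and 6.66 and 6.16 RPKM in Senp6-Mut. Of 27 listed interleukins and SASP cytokines (the secretory genes of senescent cells) with both Senp6-Mut values at least 1 RPKM, Il6, Lif and Il11 met the rule, or 11.1% against 1.25%. Of the 35 tested, both Senp6-Mut values lay above both WT values for 9 and below for 9, and the median log2 fold change was 0.08, against 28.3%, 19.2% and 0.0097 over all tested genes. Il6, Lif and Il11 are among the 9 above because of the rule. Of 26 matrix metalloproteinases and ADAMTS proteases at that level 0 met the rule, as did 0 of 17 WNT ligands and antagonists and 0 of 6 EGF family genes. On 12 prostaglandin genes Ptgs2 was the single one, or 8.33% against 1.25%.

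The promoters of the 3 gp130 cytokines are printed because these genes share a receptor and were all in the set. The sequences are the 250 bases before the gene start, 5′ to 3′ on the gene's strand, from RefSeq on GRCm38.p6. Capitals mark an AP-1 match (TGANTCA, where N is any base) in each and, in Il6, also an NF-kB match.
Il6 (chr5:30012864-30013113, plus strand): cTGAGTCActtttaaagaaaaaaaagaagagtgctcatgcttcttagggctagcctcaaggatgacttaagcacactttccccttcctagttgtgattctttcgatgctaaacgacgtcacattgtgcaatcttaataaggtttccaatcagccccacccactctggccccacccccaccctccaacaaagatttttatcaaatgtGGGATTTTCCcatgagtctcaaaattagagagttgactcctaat
Lif (chr11:4257318-4257567, plus strand): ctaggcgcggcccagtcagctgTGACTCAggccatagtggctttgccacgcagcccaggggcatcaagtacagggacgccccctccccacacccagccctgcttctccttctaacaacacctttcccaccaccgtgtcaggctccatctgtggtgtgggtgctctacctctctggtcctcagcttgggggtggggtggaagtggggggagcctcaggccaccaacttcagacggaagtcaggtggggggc
Il11 (chr7:4778142-4778391, minus strand, 1 of 2 promoters): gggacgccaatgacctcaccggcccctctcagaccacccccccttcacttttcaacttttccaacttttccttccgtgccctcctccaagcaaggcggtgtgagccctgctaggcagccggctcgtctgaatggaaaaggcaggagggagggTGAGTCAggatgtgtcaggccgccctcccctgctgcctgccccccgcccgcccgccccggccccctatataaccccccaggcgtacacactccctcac
The AP-1 match starts at -249 in Il6, -228 in Lif and -98 in Il11, counted from the gene start, and the NF-kB match of Il6 starts at -44. Of 102 genes of the 143 with a promoter in the RefSeq table, 13 (12.7%) held an AP-1 match on either strand. It was held by 5.27% of the 9167 genes with a promoter and both Senp6-Mut values at least 1 RPKM, and by 7.82% of all 27025 genes of the table. The other 10 were Bdnf, Cd80, Chrna1, Diras2, F11r, Fgf13, Gstp2, Hmgcll1, Lrrc4c and Sprr1a. The NF-kB match was in Il6 alone, against 0.404% of the 9167 genes.

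**Figure D3:**
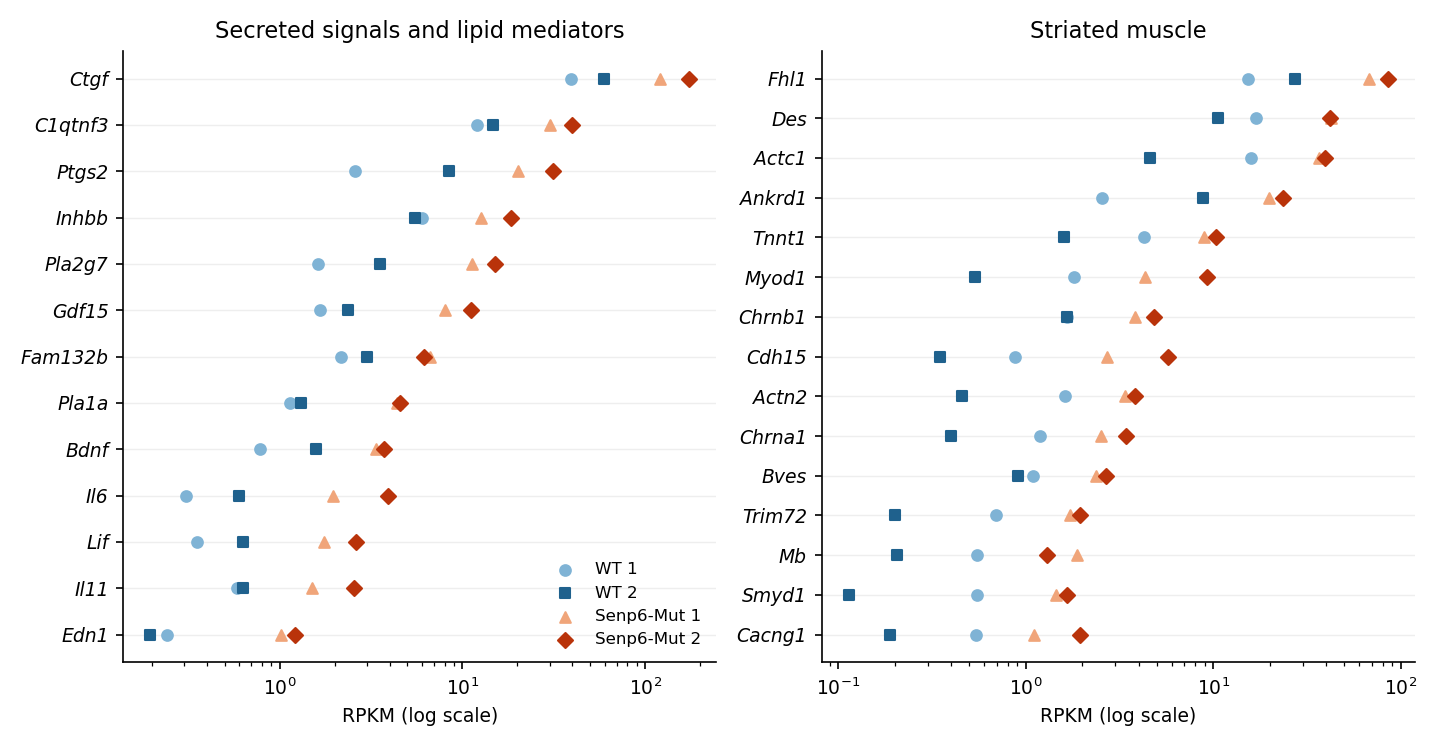
RPKM (log scale) in each of the 4 samples for the 13 genes of secreted signals and lipid mediators (left) and the 15 genes of striated muscle (right), ordered by mean Senp6-Mut level. WT 2 (dark blue) is the higher control in 11 of the 13 genes on the left, and WT 1 (light blue) is the higher control in 13 of the 15 on the right.

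Receptors made up 9 genes. The TNF receptor family gave 4 of them. Tnfrsf11a, the RANK receptor through which osteoclasts are induced, was 0.265 and 0.472 RPKM in WT and 1.27 and 1.76 RPKM in Senp6-Mut. Tnfrsf11b, the decoy receptor osteoprotegerin that blocks the ligand of RANK, was more abundant at 5.1 and 6.69 RPKM in WT and 13.6 and 14.3 RPKM in Senp6-Mut. Tnfrsf22 and Tnfrsf26 are mouse TRAIL-receptor-like genes that lie next to each other. Tnfrsf22 was 4.14 and 5.31 RPKM in WT and 10.7 and 15.4 RPKM in Senp6-Mut, and Tnfrsf26 was 0.527 and 0.54 RPKM in WT and 1.27 and 2.1 RPKM in Senp6-Mut. The melanocortin receptor genes Mc2r and Mc5r are also neighbours. Mc2r, the ACTH receptor, was 0.87 and 0.541 RPKM in WT and 3.37 and 4.97 RPKM in Senp6-Mut, and Mc5r was 0.614 and 0.198 RPKM in WT and 2.0 and 2.32 RPKM in Senp6-Mut. WT 1 was the higher control in both, unlike the TNF receptors, in which WT 2 was. The serotonin receptor Htr1b, the orphan receptor Gpr85 and the olfactory receptor gene Olfr1033 had ratios of 2.57, 2.17 and 2.76. Reads covered only 7.32% and 15.9% of the length of Olfr1033 in WT and 15.7% and 8.89% in Senp6-Mut. Its values therefore rest on a small part of the gene.

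The striated muscle genes were 15, and they spanned determination, sarcomere and membrane. Myod1, the myogenic determination factor, was 1.8 and 0.537 RPKM in WT and 4.3 and 9.3 RPKM in Senp6-Mut. Des, the muscle intermediate filament desmin, was 16.9 and 10.5 RPKM in WT and 42.6 and 41.9 RPKM in Senp6-Mut. Actc1, the cardiac and fetal skeletal actin, was 15.8 and 4.6 RPKM in WT and 36.5 and 39.5 RPKM in Senp6-Mut. Actn2, the alpha-actinin of the Z disc, was 1.62 and 0.458 RPKM in WT and 3.38 and 3.84 RPKM in Senp6-Mut, and Tnnt1, the slow troponin T, was 4.28 and 1.6 RPKM in WT and 8.95 and 10.4 RPKM in Senp6-Mut. Mb, the oxygen carrier myoglobin, was 0.552 and 0.205 RPKM in WT and 1.87 and 1.29 RPKM in Senp6-Mut. Chrna1, a subunit of the muscle acetylcholine receptor, was 1.19 and 0.399 RPKM in WT and 2.52 and 3.41 RPKM in Senp6-Mut. In these 7 genes WT 1 was the higher control, between 1.6-fold (Des) and 3.53-fold (Actn2) above WT 2.

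Ankrd1, a stretch-responsive titin-binding protein and a YAP and TEAD target, went the other way between the controls, at 2.56 and 8.78 RPKM in WT and 19.8 and 23.6 RPKM in Senp6-Mut. Fhl1, given above, also had the higher control in WT 2. The other muscle genes were Cdh15, Smyd1, Trim72, Chrnb1, Bves and Cacng1, with ratios from 2.03 (Cacng1) to 3.10 (Cdh15, the muscle cadherin). For 10 of the 15 the WT samples were further apart than the higher WT and the lower Senp6-Mut value. This was the case for 9 of the other 128 genes.

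The cultures were also compared over a list of striated muscle markers, which includes 7 of these 15 genes. The summed RPKM of 60 striated muscle markers was 226 and 79.1 in WT and 357 and 412 in Senp6-Mut, so WT 1 lay between WT 2 and the mutants. Of the 35 markers with both Senp6-Mut values at least 1 RPKM, 7 met the rule, against 1.25% over all genes at that level. Of the 50 tested, both Senp6-Mut values lay above both WT values for 40 and below for 0, and the median log2 fold change was 1.36, against 28.3%, 19.2% and 0.0097 over all tested genes. The 7 that met the rule are among the 40 because of the rule, so the sums and counts are not independent of the choice. Myog was 5.11 and 1.31 RPKM in WT and 8.57 and 14.7 RPKM in Senp6-Mut and Myh3 was 6.72 and 1.08 RPKM in WT and 11 and 10.5 RPKM in Senp6-Mut, and the satellite cell factor Pax7 was at most 0.0151 RPKM. Ckm, the creatine kinase of mature muscle, was 1.51 and 0.027 RPKM in WT and 0.296 and 0.25 RPKM in Senp6-Mut, with WT 1 the highest sample. In bulk RNA, more muscle cells and more muscle RNA in each cell cannot be told apart. The part of muscle cells in these 15 genes was not tested.

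For a view of the muscle promoters, those of Chrna1 and Des are printed, with matches to CAGCTG, an E-box letter form bound by myogenic factors, in capitals.
Chrna1 (chr2:73580339-73580588, minus strand): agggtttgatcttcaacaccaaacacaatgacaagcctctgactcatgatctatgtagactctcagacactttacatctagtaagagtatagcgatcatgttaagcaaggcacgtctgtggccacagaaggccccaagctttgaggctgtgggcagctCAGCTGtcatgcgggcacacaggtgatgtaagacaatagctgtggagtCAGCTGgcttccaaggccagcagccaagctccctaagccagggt
Des (chr1:75360042-75360291, plus strand): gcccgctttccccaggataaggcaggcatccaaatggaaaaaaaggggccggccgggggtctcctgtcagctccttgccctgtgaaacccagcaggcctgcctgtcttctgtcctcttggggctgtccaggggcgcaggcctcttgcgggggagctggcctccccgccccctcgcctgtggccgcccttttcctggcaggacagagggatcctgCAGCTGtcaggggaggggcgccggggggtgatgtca
The matches start at -92 and -44 in Chrna1 and at -36 in Des. CAGCTG was found in 26 of the 102 genes with a promoter (25.5%), against 14% of the 9167 genes and 14.7% of all 27025. Those 26 include non-muscle genes such as Bdnf, Lif, Il11, Ly6c1, Tmtc1 and Tmtc4. The CArG core of serum response factor was found in 0 of the 102 and in 0.175% of the 9167.

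Epithelial and cell junction genes were 12. Krt18, a keratin of simple epithelia, was 3.47 and 9.24 RPKM in WT and 19.5 and 24.1 RPKM in Senp6-Mut, and its partner Krt8, outside the set, was 0.501 and 1.29 RPKM in WT and 1.59 and 2.28 RPKM in Senp6-Mut. Sprr1a, a precursor of the cornified envelope that is also induced in injured neurons, was 0.236 and 0.19 RPKM in WT and 1.64 and 1.93 RPKM in Senp6-Mut, and F11r, the junctional adhesion molecule JAM-A, was 1.74 and 1.51 RPKM in WT and 6.63 and 9.13 RPKM in Senp6-Mut. Cldn3 is described above. The other members were Krt80, Lgals7, Wfdc2, Bnc1, Jam2, Plekha7, Prss22 and Frmd5, with ratios of 2.05 to 3.39. For 4 of the 12 the WT samples were further apart than the higher WT and the lower Senp6-Mut value.

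A list of epithelial markers that includes Cldn3 and Krt18 was also read. Summed over 37 epithelial keratin and desmosome markers the RPKM was 29.8 and 36.9 in WT and 65 and 76 in Senp6-Mut. Of the 9 with both Senp6-Mut values at least 1 RPKM, Cldn3 and Krt18 met the rule, against 1.25% over all genes at that level. Of the 18 tested, both Senp6-Mut values lay above both WT values for 14 and below for 0, with a median log2 fold change of 1.27, against 28.3%, 19.2% and 0.0097 over all tested genes. Cldn3 and Krt18 are among the 14 because of the rule, so the sums and counts are not independent of the choice. Perp and Sfn of this list are also on the p53 target list. Several defining markers were low, although Krt18 was not: Krt5, the basal keratin, was at most 0.0217 RPKM, Krt14 at most 0.253, Cdh1 (E-cadherin) at most 0.201 and Epcam at most 0.721. The mesothelial list of 7 genes was 102 and 115 in WT and 166 and 219 in Senp6-Mut in summed RPKM, and the part of either cell type in these genes was not tested.

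Neuronal and neural crest genes were the largest named role group with 18. Stmn2 and Fgf13 are given above. Syn1, a synaptic vesicle protein, was 1.04 and 0.789 RPKM in WT and 3.14 and 4.89 RPKM in Senp6-Mut, and the annotation has it overlapping Timp1 and Araf. Timp1 is the far more abundant gene and was 296 and 380.4 RPKM in WT and 449 and 685 RPKM in Senp6-Mut. Doc2b, a calcium sensor of vesicle release, was 0.378 and 0.26 RPKM in WT and 1.61 and 2.02 RPKM in Senp6-Mut, and Sult4a1, a brain sulfotransferase, was 0.428 and 0.422 RPKM in WT and 2.07 and 3.81 RPKM in Senp6-Mut. Diras2, a Ras-like GTPase of brain, was 0.328 and 0.378 RPKM in WT and 1.38 and 1.89 RPKM in Senp6-Mut. Bex1, a neurotrophin-signalling adaptor, was 1.39 and 0.516 RPKM in WT and 3.34 and 2.94 RPKM in Senp6-Mut, with the WT samples 2.69-fold apart. Sox10, the factor of neural crest and glia, was 0.368 and 0.24 RPKM in WT and 1.11 and 1.91 RPKM in Senp6-Mut, and Fabp7, a fatty acid binding protein of radial glia and Schwann precursors, was 0.50 and 0.502 RPKM in WT and 1.4 and 1.81 RPKM in Senp6-Mut. The others were Nes, Rab3b, Nptx2, Igsf9, Lrrc4c, Neto2, Sema4f, Cadm4 and Baalc, with ratios of 2.01 to 3.52.

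Of 16 listed neuronal genes with both Senp6-Mut values at least 1 RPKM, Bdnf, Bex1, Stmn2 and Syn1 met the rule, against 1.25% over all genes at that level. Of the 33 tested, both Senp6-Mut values lay above both WT values for 23 and below for 1, and the median log2 fold change was 0.88, against 28.3%, 19.2% and 0.0097 over all tested genes. Bdnf, Bex1, Stmn2 and Syn1 are among the 23 because of the rule. Sox10 and Fabp7 came from a list of Schwann cell and glia markers whose 15 genes had a summed RPKM of 177 and 195 in WT and 193 and 189.7 in Senp6-Mut, with the groups overlapping. Of its 12 tested genes, both Senp6-Mut values lay above both WT values for 9 and below for 0, and the median log2 fold change was 0.69. Over all tested genes these were 28.3%, 19.2% and 0.0097. Sox10 and Fabp7 are among the 9 because of the rule.

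Vascular genes were Mcam, Flt4, Esm1 and Bcl6b. Mcam (CD146), an adhesion molecule of endothelium, pericytes and skeletal stem cells, was the abundant one at 4.92 and 9.5 RPKM in WT and 27.6 and 33.1 RPKM in Senp6-Mut. The lymphatic receptor Flt4, the secreted proteoglycan Esm1 and the repressor Bcl6b had ratios of 2.39 to 3.04. WT 2 was the higher control in all 4. The endothelial list had a summed RPKM of 49.2 and 37.3 in WT and 37.9 and 47.6 in Senp6-Mut, with the groups overlapping, and its defining genes Pecam1 and Cdh5 were at most 0.317 and 0.38 RPKM.

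Edn1 and Ankrd1 are known to respond to mechanical strain, and their promoters are shown because both are in the set, with matches to GGAATG, the letter form bound by TEAD factors, in capitals.
Ankrd1 (chr19:36119845-36120094, minus strand): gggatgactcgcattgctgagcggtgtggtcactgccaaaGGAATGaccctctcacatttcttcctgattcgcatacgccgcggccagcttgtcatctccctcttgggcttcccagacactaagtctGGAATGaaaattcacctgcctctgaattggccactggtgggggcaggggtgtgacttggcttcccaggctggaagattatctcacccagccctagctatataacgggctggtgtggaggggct
Edn1 (chr13:42301226-42301475, plus strand): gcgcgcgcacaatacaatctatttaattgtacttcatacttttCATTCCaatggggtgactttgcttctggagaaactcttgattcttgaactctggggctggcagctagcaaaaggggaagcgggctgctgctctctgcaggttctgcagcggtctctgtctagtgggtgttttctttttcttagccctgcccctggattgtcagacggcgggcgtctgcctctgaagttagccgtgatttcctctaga
Ankrd1 has 2 matches, at -210 and -123, and Edn1 has 1 at -207, on the other strand and so printed as its reverse complement. The TEAD letters were in 17 of the 102 genes (16.7%), against 12.9% of the 9167 and 14.4% of the 27025. The p53 decamer, searched singly by its consensus, was in 5 of the 102 genes (4.90%, against 7.19% and 8.20%). They were 1700007K13Rik, Aff2, Bdnf, Il6 and Serinc2. Of the genes in the set on the p53 target list, Gdf15 and Lif had no match. Pmaip1 is not among the 102 genes and was not searched. Only the stretch before the gene start was read, so p53 sites elsewhere in these genes were not looked for. Matches to CACGTG (8 genes, 7.84% against 10.1% and 6.86%), the TATA letters TATAAA (11 genes, 10.8% against 7.59% and 14.3%) and the CRE TGACGTCA (2 genes, 1.96% against 3.10% and 1.77%) were also counted. The median ratio of observed to expected CpG was 0.499 over the 134 promoters of these genes, 0.732 over those of the 9167 and 0.374 over all. These counts are matches of letters and were not tested.

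Immune and complement genes were 11. Mcpt8, Bst1, Serpinb9b and Ly6c1 are given above. Cd80, a co-stimulatory ligand of T cells, had a ratio of 2.29, and Tigit, an inhibitory receptor of T and NK cells, one of 2.02. The annotation has Tigit overlapping Zbtb20 and Mir568, so its reads cannot be told apart from theirs. Cd59a, which restrains complement, had a ratio of 2.11, and Entpd1 (CD39), Vnn1 and Klrg2 ratios of 2.12 to 2.48. Markers of leukocytes were also read. Ptprc, the pan-leukocyte CD45, was at most 0.0427 RPKM, Cpa3, a mast cell protease, at most 0.0728 RPKM, and the 8 mast cell and lymphocyte markers had a summed RPKM of 0.266 and 0.493 in WT and 0.547 and 1.19 in Senp6-Mut. The macrophage and osteoclast list had a summed RPKM of 117 and 93.2 in WT and 58.3 and 61.3 in Senp6-Mut. Of its 19 tested genes both Senp6-Mut values lay below both WT values for 14 and above for 2, against 19.2% and 28.3% over all tested genes. The part of these cells in the 11 genes was not tested.

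Matrix and adhesion genes were 6. Lama5, the alpha-5 chain of laminin, had WT values of 1.77 and 1.77 RPKM and Senp6-Mut values of 6.03 and 7.14 RPKM, and it had the tightest controls of this group. Prg4, the lubricin of joint surfaces, had a ratio of 2.02, and Tll1, Lims2, Pcdh1 and Coch ratios of 2.19 to 5.24. Channels and transporters were 5, with ratios of 2.13 to 2.39, and included the anoctamin pair Ano1 and Ano3, the calcium channel subunit Cacnb2, the efflux pump Abcb1a and Serinc2.

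Enzymes of metabolism and glycosylation were 14. Cyp2s1, a cytochrome P450 of epithelia, was 0.418 and 0.35 RPKM in WT and 1.61 and 2.17 RPKM in Senp6-Mut. Tmtc4, which adds mannose to cadherins, was 7.76 and 9.55 RPKM in WT and 21.5 and 26.2 RPKM in Senp6-Mut, and its relative Tmtc1 had a ratio of 3.10. The others, besides Crym, Ass1 and Cox6b2, were Egln3, an oxygen-sensing prolyl hydroxylase, Gatm of creatine synthesis, Hmgcll1 of ketone body synthesis, Gstp2, Mettl20, St6galnac2, B4galnt4 and Gdpd5, with ratios of 2.02 to 2.34. Gstp2 was at 3.49 and 3.07 RPKM in Senp6-Mut while its near-identical neighbour Gstp1 was 93.4 and 116 RPKM in WT and 91.6 and 122 RPKM in Senp6-Mut, so its reads may be shared with Gstp1.

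Signalling and cytoskeleton genes were 7, namely Arhgap36, Tuba8, Mtus2, Map3k7cl, Rnf128, Rap1gap and Pkia, with ratios from 2.01 to 7.95. Transcription and silencing genes were 4. Nr4a1, an immediate early nuclear receptor, was 5.09 and 6.14 RPKM in WT and 12.6 and 20.4 RPKM in Senp6-Mut. Of 19 immediate early genes with both Senp6-Mut values at least 1 RPKM it alone met the rule, or 5.26% against 1.25%. Of the 21 tested, both Senp6-Mut values lay above both WT values for 16 and below for 1. Their median log2 fold change was 0.28. Over all tested genes the shares were 28.3% and 19.2% and the median 0.0097. Nr4a1 is among the 16 because of the rule. 2810474O19Rik, now named Resf1 and known for silencing retroelements, was 7.16 and 8.75 RPKM in WT and 17.7 and 19.4 RPKM in Senp6-Mut. Aff2 and Tcfl5 completed the group.

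The role of 21 genes was not assigned. The genes with Gm or Rik names among them include Gm12505, at 1.45 and 3.08 RPKM in WT and 8.95 and 17.4 RPKM in Senp6-Mut, 2610318N02Rik, at 2.42 and 3.72 RPKM in WT and 8.58 and 12.9 RPKM in Senp6-Mut, Gm13212, at 0.86 and 0.853 RPKM in WT and 1.73 and 1.79 RPKM in Senp6-Mut, and Gm16702, at 1.44 and 1.86 RPKM in WT and 3.75 and 4.2 RPKM in Senp6-Mut. The others were Stxbp3b, Ccdc68, Nup62cl, Parm1, Tpd52l1, Plekha6, Tuft1, AI414108, Fam46b, Samd5, Mir3072, Tmem200a, Tmem151a, Ociad2 and Wdr92, besides 2210409E12Rik and Gm15698. Stxbp3b is annotated as a pseudogene of Stxbp3, and reads of the pair may not be separable.

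Several other lists gave no gene, which at a background of 1.25% says little for lists of this size. Of genes with both Senp6-Mut values at least 1 RPKM, 0 of 32 S-phase and mitotic genes, 0 of 26 imprinted genes, 0 of 24 interferon-stimulated genes, 0 of 16 MAPK phosphatases and Sprouty genes, 0 of 14 NRF2 antioxidant genes, 0 of 14 genes of the integrated stress response, 0 of 12 genes of MHC class I and antigen presentation and 0 of 4 germline genes met the rule. A list without a gene by the rule could still differ in level. The MAPK phosphatases and Sprouty genes had both Senp6-Mut values above both WT values for 13 of 17 tested genes and below for 0. Their median log2 fold change was 0.66. For 12 tested smooth muscle and pericyte markers it was 10 above and 0 below (median 0.61). For 10 tested EGF family genes it was 6 above and 3 below (median 0.99). For 19 tested chondrocyte markers it was 1 above and 16 below (median -1.54). Over all tested genes these were 28.3%, 19.2% and 0.0097. On the FGF list 1 of 6 genes met the rule (16.7%), namely Fgf13, which is an intracellular factor and not a secreted ligand. Inhbb and Gdf15 were 2 of 22 TGF-beta family genes (9.09%), and Serpinb9b was 1 of 15 genes of the plasminogen system and serpins (6.67%). The share over all genes at that level was 1.25%. Of cell type markers at that level, the rule took 0 of 18 for chondrocytes, 0 of 7 for osteoblasts, 0 of 12 for fibroblasts and tendon, 0 of 11 for smooth muscle and pericytes, 0 of 3 for mesothelium, 0 of 6 for macrophages and osteoclasts, 0 of 1 for erythroid cells, 0 of 3 for endothelium and 0 of 6 for adipocytes. The mast cell and lymphocyte list had 0 genes at that level, so none could be taken. On every list, 0 genes had an edgeR adjusted p under 0.05.

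The gap between the controls was wider in these genes, in the median, than in the rest. The higher WT value was over 2 times the lower for 34 of the 143 (23.8%) and for 2.95% of the other 11341 genes with both Senp6-Mut values at least 1 RPKM, and the median gap was 1.39-fold against 1.18-fold. The Senp6-Mut samples were over 2 times apart for 11 of the 143 (7.69%) against 0.547%, with medians of 1.26-fold and 1.09-fold. For 19 of the 143 the WT samples were further apart than the higher WT and the lower Senp6-Mut value. The levels differed too, as the median mean WT level was 0.953 RPKM for the 143 and 11 RPKM for the others, and the part of read depth in the wider spread was not tested.

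The higher control was not the same sample in each role group. WT 2 was the higher control in 93 of the 143 (65.0%, against 59.5% of the other 11341 genes). It was so in 2 of the 15 striated muscle genes, 11 of the 13 secreted signals and lipid mediators, 9 of the 12 epithelial and junction genes and 4 of the 4 vascular genes. The median WT 2 over WT 1 ratio was 0.371 for muscle and 1.42 for secreted signals. Senp6-Mut 2 was the higher mutant sample in 126 of the 143 genes (88.1%, against 57.5%), and in at least 4 genes of every role group. The roles were assigned with the values known, and these counts were not tested.

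**Figure D4:**
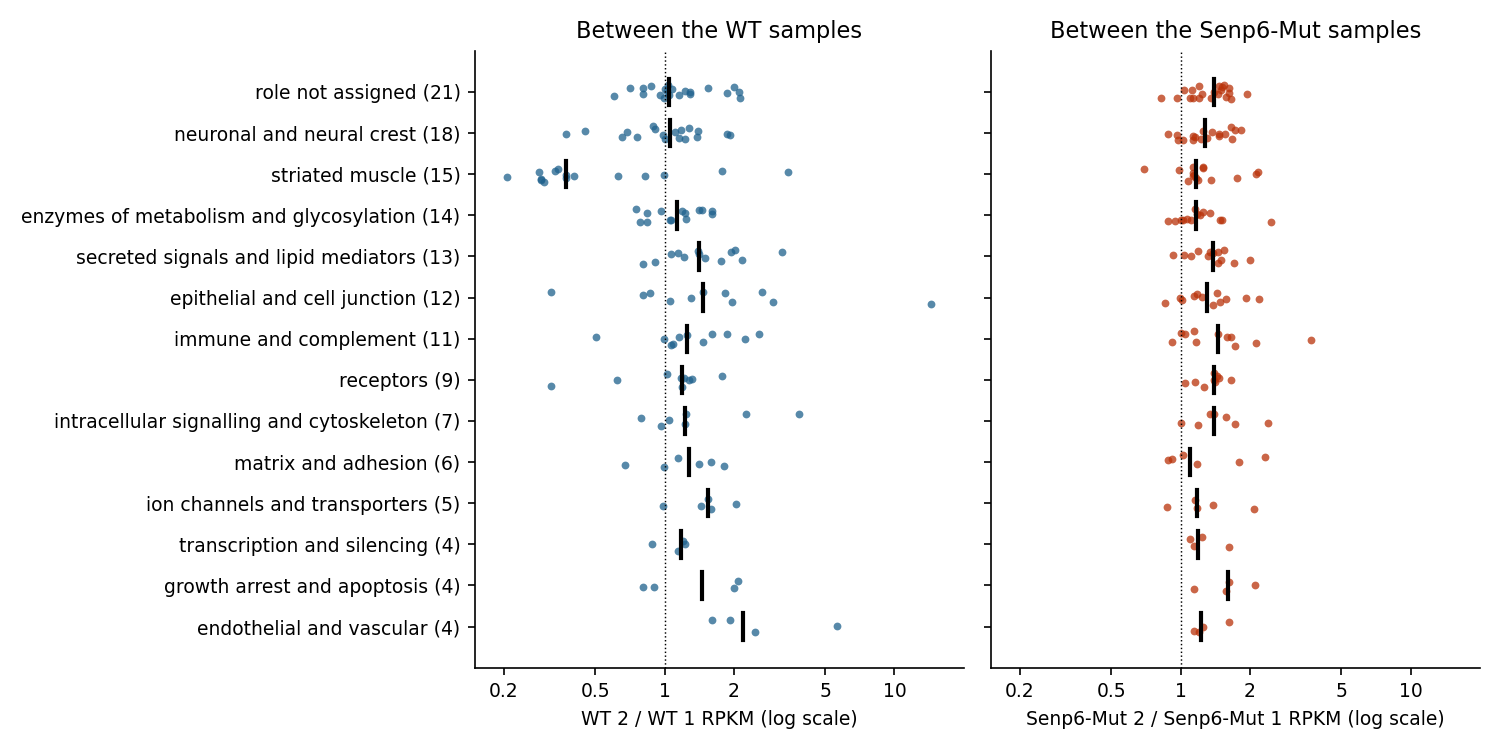
Ratio of the second to the first sample within WT (left) and within Senp6-Mut (right), on log scales, 1 point a gene, by role group with the number of genes in brackets. Black bars are group medians and the dotted line marks equal samples. Cldn3, with 0 reads in WT 1, is not drawn on the left. Striated muscle lies left of the line in WT, with a median of 0.371, and the groups of the right panel all have medians above 1.

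Leaving a sample out loosens the rule, so each of the 143 is kept and others join. With WT 2 as the single control 230 genes met it, and with WT 1 as the single control 366. With Senp6-Mut 1 as the single mutant 170 met it, and with Senp6-Mut 2 388. On the X chromosome lay 8 of the 142 genes with a RefSeq entry (5.63%, against 3.31% of the genes with both Senp6-Mut values at least 1 RPKM), namely Arhgap36, Fgf13, Nup62cl, Syn1, Fhl1, Rnf128, Aff2 and Bex1. For 7 of these 8 Senp6-Mut 2, the sample with Xist reads, was the higher mutant sample, and Bex1 was the exception. The part of embryo sex in these genes was not tested.

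**Figure D5:**
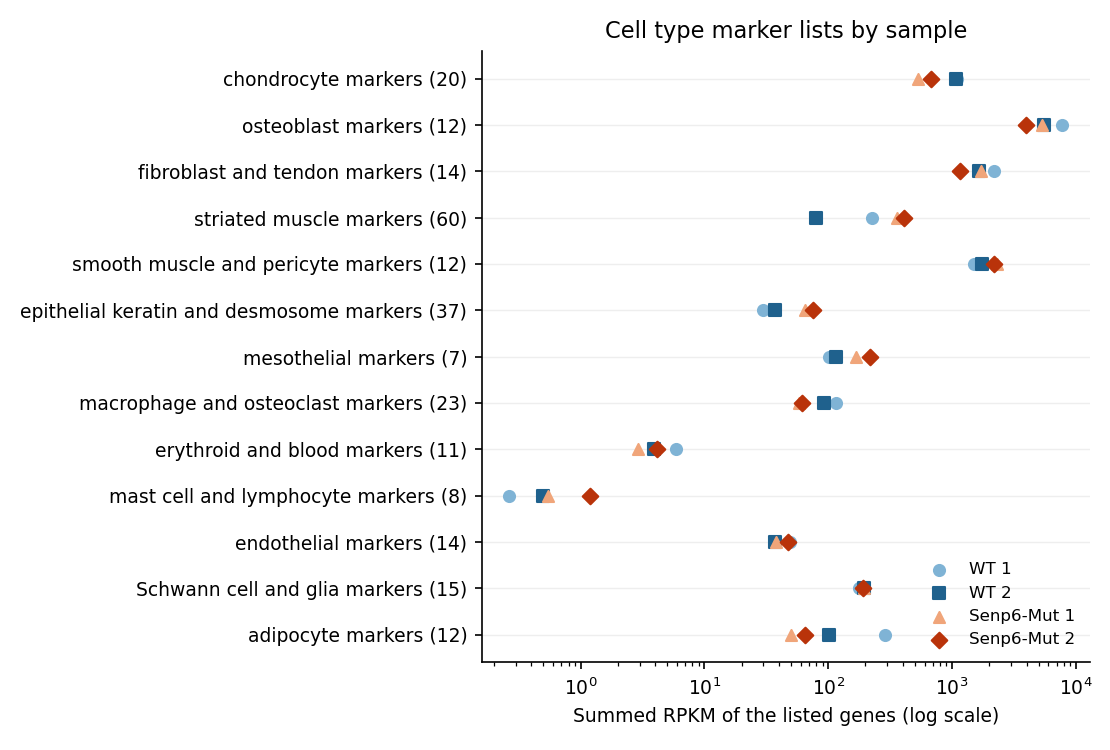
Summed RPKM (log scale) of the genes of each cell type marker list in the 4 samples, with the number of listed genes read in brackets. The striated muscle sum is lowest in WT 2 and the epithelial sum is higher in both Senp6-Mut samples, while the Schwann cell and endothelial sums overlap between the groups. The striated muscle, epithelial and Schwann cell lists include genes chosen by the rule.

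The gene terms of the deposited tables placed many products at the cell surface or outside the cell. The term intrinsic to membrane was carried by 30 of the 143 genes (21.0%, against 13.9% of the 11484), extracellular region part by 11 (7.69% against 2.58%), receptor binding by 8 (5.59% against 1.84%) and cell-cell adhesion by 7 (4.90% against 0.888%). Nuclear lumen was carried by 9 (6.29% against 10.2%) and nucleic acid binding by 6 (4.20% against 9.08%), whereas regulation of transcription from RNA polymerase II promoter was carried by 11 (7.69% against 4.25%). Apoptotic process was carried by 9 (6.29% against 3.19%). The median gene length was 2482 bases against 2869. These shares were not tested. Of the 143 genes, 21 overlap another read gene in the RefSeq annotation, and as the library protocol names no step that keeps the strand, reads of such genes cannot be told apart from those of their partner. Reads of Actc1, Ly6c1, Tuba8, Serpinb9b and Cd59a may likewise be shared with close family members.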

How the data were processed

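RNA of cultured rib chondrocytes from 2 WT (Senp6f/f) and 2 Senp6-Mut (Dermo1-Cre;Senp6f/f) samples was made into poly(A)-selected libraries, which a company sequenced. The authors deposited 1 table a sample, with a read count, an RPKM and a coverage in percent of gene length for every gene listed. The deposited RPKM is the read count divided by the gene length and by the total of reads counted on genes. The submitters' processing notes name mm9 and SAMtools. The aligner, the counting tool, its handling of strand and of reads with several matches, and the annotation are not given in the sources used here. A gene absent from a sample's list was given 0.

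The rule was applied to the deposited RPKM with no pseudocount. Replicates were checked for a repeated library, and their counts differed by far more than sampling noise (chi-square over degrees of freedom of 40.8 for WT and 20.1 for Senp6-Mut). Counts were fitted in edgeR 4.0.16 under R 4.3.3 (TMM, robust quasi-likelihood F-test) for the 14123 genes that had 10 or more reads in 2 or more libraries. P-values were adjusted by Benjamini-Hochberg, with a threshold of 0.05. DESeq2 1.42.0 and limma 3.58.1 were alternatives, and the fits were tested on simulated data. At depths of 21.02 to 30.99, in units of 1000000 reads, some low genes rest on few reads, and intervals are exact 95% intervals of the ratio of summed reads. Gene order, overlaps and promoters were taken from RefSeq on GRCm38.p6 by Entrez Gene identifier (142 of the 143 genes matched), and none of its coordinates were joined to the files.

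The 143 genes and the lists were chosen with earlier results of these data known, and the 14 role groups were assigned after the genes were known. Values are given for the 25 largest ratios, the 15 highest mean Senp6-Mut levels, genes on a list, families of at least 3 genes sharing the letters of their symbol, and the 5 genes on either side of the limit, 65 of the 143 genes in all without the last part. A few further genes, such as Rprm, Mc5r and the phospholipases, were named after their values were seen. The values of a few genes that these parts would name are not reported here.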

Additional observations from a re-analysis of the deposited data

How the results depend on the processing

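The number of genes meeting the rule depended most on the limits set. It was 350 at a fold limit of 1.5 and 38 at 3, 91 with a floor of 2 RPKM, and 40 with a pseudocount of 1 RPKM, under which the low genes drop out. Leaving out 1 sample gave 170 to 388 genes, the latter without Senp6-Mut 1, with 366 without WT 2 and 230 without WT 1. TMM scaling (135, of which 133 among the 143), DESeq2 size factors (128), a floor of 0.5 RPKM (214), a pseudocount of 0.1 RPKM (126) and at least 10 reads in each Senp6-Mut sample (142) stayed within 1.5 times of 143. Counts for single lists kept within 1.5 times in 350 of 416 cases. A list that gave no gene and stayed without one was counted as kept. Many lists gave no gene, so this says little about the lists that did.

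The test over all genes gave 0 higher and 0 lower genes in edgeR with TMM or RLE, with at least 10 counts in every sample, and in limma with either pseudocount. DESeq2 gave 434 higher and 263 lower, and edgeR with no filter gave 225 and 61. Leaving out 1 sample in edgeR gave 68 to 1296 higher and 37 to 1444 lower genes, the lowest without Senp6-Mut 2 and the highest without WT 2, and the lone sample of a group is then assumed to vary like the other group. The replicate block gave 84 higher and 33 lower. The labels number the replicates but do not say whether a shared number marks a pair. The differences between replicates 1 and 2 in WT and in Senp6-Mut had a correlation of -0.043 across 14123 genes. With 2 pairs this cannot decide whether the samples are paired. The cause of the differences between replicates was not tested. None of the 65 named genes changed the sign of its log2 fold change in 686 refits. The rule had chosen these genes as at least doubled in both Senp6-Mut samples, so this gives them no support. Genes with few reads, such as Mir3072 with 1 in each WT sample, have wide counting intervals.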

Other observations

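Under the rule with the fold limit raised to 3, the floor raised to 2 RPKM, a pseudocount of 0.1 or of 1 RPKM, at least 10 reads in each Senp6-Mut sample, TMM scaling or DESeq2 size factors, each applied alone, 18 of the 143 genes met the rule every time. They were 2210409E12Rik, Ccdc68, F11r, Gdf15, Gm15698, Lama5, Mc2r, Mcpt8, Pla1a, Pla2g7, Pmaip1, Serpinb9b, Stmn2, Sult4a1, Syn1, Tcfl5, Tuba8 and Wfdc2. None was a striated muscle gene, as the muscle genes had 1 gene, Cdh15, with a ratio of at least 3. Cldn3, with the largest ratio, was not among them because both Senp6-Mut values were under 2 RPKM.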
